A study of Mus musculus with 12 samples.

Results

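The regions described here are stretches of H3K27ac-marked chromatin that lie between genes in the newborn mouse heart, outside every protein-coding gene body but within 50 kb of one. They were found by merging the called regions of 6 hearts into a union (overlap of at least 1 bp, autosomes alone). Kept were union regions that overlap no protein-coding gene body and lie more than 1 kb and at most 50 kb from the nearest one. Of 77817 autosomal union regions, 14930 met this rule and are called near-intergenic. The others were 13715 regions within 1 kb of either end of a gene, 40159 inside genes and 9013 intergenic regions farther than 50 kb from a gene.

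H3K27ac had been mapped by ChIP-seq in whole hearts of newborn mice at postnatal day 0. The 3 edKO hearts, numbered 1, 3 and 6, were RXRab-/- in cardiomyocytes alone, that is, without Rxra and Rxrb there. The 3 WT hearts, numbered 1, 3 and 4, were wild type. Each heart came from 1 newborn and is a biological replicate, and all 6 were fixed with DSG and then FA, per the labels. The labels used here name no Cre driver and no strain. Whole hearts also hold endothelial, mesenchymal and blood cells, which keep both genes in edKO, and in such bulk samples fewer cells of a type and less mark per cell cannot be told apart. The edKO hearts had 46967, 47302 and 66532 autosomal regions, against 56696, 61688 and 65203 in WT hearts. Sequencing depth per heart is unknown, so a region missing from a heart is one that was not called. Near-intergenic regions had 5368 of all 20661 autosomal protein-coding genes as nearest gene. Among them were 22 of 25 cardiac transcription factor genes, 18 of 19 fibroblast genes and 18 of 21 endothelial genes. So were 5 of 16 leukocyte genes and 2 of 10 autosomal erythroid genes.

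H3K27ac is deposited by p300 and CBP on nucleosomes beside active promoters and active enhancers. Enhancers lie between genes or in introns, raise transcription from a distance, and are more often specific to a cell type than promoters are. The nearest gene is a convenient label for such a region and need not be the gene it acts on. RXRs are nuclear receptors. They pair with PPARs, retinoic acid receptors, LXRs and others, and each pair sits on DNA at a repeated short half-site. With PPARs they are known to control genes of fatty acid use, on which the heart comes to depend after birth.

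Some near-intergenic regions hold the start of a non-coding gene, for which a reference promoter sequence can be shown. A promoter window (250 bases before to 50 bases after a start, RefSeq, GRCm38.p6) lay wholly inside such a region in 435 cases, at 379 regions, and 312 of these regions (82.3%) were called in all 6 hearts. The 4 windows printed here are those inside regions that were called in every WT heart and in no edKO heart, or that passed the region test described further on. Gm32838 (chr6:145968647-145968946, plus strand) lies in the region nearest to Sspn. Scpep1os (chr11:88905678-88905977, plus strand) lies near Scpep1, 4732471J01Rik (chr7:25376569-25376868, plus strand) near Lipe, and Gm41158 (chr14:55468488-55468787, minus strand) near Dhrs4. All 4 are long non-coding RNA genes. Capitals mark the nuclear receptor half-site AGGTCA on either strand.
Gm32838: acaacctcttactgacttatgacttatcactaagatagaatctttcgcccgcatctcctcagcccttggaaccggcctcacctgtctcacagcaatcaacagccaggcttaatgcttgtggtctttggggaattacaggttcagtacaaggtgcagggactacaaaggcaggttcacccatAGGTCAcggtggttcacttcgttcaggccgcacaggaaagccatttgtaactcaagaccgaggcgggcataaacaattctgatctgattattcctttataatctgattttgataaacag
Scpep1os: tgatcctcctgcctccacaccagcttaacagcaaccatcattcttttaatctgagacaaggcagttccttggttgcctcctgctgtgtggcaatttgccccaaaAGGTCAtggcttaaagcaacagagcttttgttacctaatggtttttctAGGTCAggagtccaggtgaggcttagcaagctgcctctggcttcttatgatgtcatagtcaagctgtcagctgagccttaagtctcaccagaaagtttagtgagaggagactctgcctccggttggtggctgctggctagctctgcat
4732471J01Rik: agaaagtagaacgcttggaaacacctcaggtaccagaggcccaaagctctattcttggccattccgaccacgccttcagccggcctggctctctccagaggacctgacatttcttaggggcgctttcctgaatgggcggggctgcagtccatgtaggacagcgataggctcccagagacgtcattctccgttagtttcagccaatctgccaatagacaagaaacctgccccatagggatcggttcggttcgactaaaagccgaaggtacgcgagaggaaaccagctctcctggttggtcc
Gm41158: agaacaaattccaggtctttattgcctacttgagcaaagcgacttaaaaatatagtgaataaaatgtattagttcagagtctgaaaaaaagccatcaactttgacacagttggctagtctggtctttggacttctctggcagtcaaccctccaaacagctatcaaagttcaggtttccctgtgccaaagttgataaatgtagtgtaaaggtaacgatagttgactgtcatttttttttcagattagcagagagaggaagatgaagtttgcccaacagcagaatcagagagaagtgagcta
The half-site was present in the Gm32838 window (1 copy) and the Scpep1os window (2 copies) and absent from the other two. AGGTCA on either strand was found in 94 of the 435 windows inside near-intergenic regions (21.6%), beside 16.3% of all 32807 promoter windows of the same length. The direct repeat AGGTCANAGGTCA, which contains the half-site, was found in 0 of the 435 and in 13 (0.0396%) of all windows. Its relaxed form AGGNCANAGGNCA was found in 2 (0.46%) of the 435 and in 0.381% of all windows. A match describes the letters in these windows and is not a binding site.

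MicroRNA genes were the other annotated sequences in these regions. Of those whose sequences were matched, 23 miRNA genes lay in 20 near-intergenic regions, and 15 of the 20 were called in all 6 hearts. Their 40 mature miRNAs (RefSeq, GRCm38.p6) had 38 distinct seeds, bases 2 to 8, shown in capitals below for 3 chosen after their values were seen, as well as for the pairs that share a seed. The let-7i (chr10:122985698-122985719, minus strand) and let-7c (chr15:85706616-85706637, plus) forms share one seed, and the miR-24 (chr8:84208875-84208896, plus) and miR-6413 (chr10:20297593-20297613, minus) forms share another. The 5p form of Mir1a-1, miR-1a-1-5p, lies at chr2:180389057-180389079 (plus), and the 3p form of that gene is not shown. MiR-22-3p lies at chr11:75463772-75463793 (plus) and miR-130a-3p at chr2:84741116-84741137 (minus).
let-7i-5p: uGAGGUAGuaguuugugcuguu
let-7c-5p: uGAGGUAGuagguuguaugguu
miR-24-3p: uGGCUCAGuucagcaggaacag
miR-6413: uGGCUCAGaagagcagguagu
miR-1a-1-5p: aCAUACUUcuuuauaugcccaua
miR-22-3p: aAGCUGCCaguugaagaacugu
miR-130a-3p: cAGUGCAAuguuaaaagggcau
The region over Mirlet7i, 3214 bp from Mon2, was 5575, 4571 and 5236 bp long in edKO hearts, against 5916, 5530 and 5254 bp in WT hearts. Its mean fold enrichment rank over the 6 hearts was the highest of all near-intergenic regions called in every heart. The genotypes overlapped in its length. The region over Mirlet7c-2, 28053 bp from the PPAR gene Ppara, was called in 1 heart alone, edKO 6, at 652 bp. The same seed thus sat in one region called in all hearts and one called once. The region over Mir1a-1, a muscle miRNA gene, and its neighbour Mir133a-2 lay 48361 bp from Gata5 and was 17048 bp wide in the union. It was 15984, 12353 and 15551 bp in edKO hearts, against 16394, 16283 and 15883 bp in WT hearts. The genotypes overlapped, as edKO 1 lay above WT 4. The region over Mir22, 3820 bp from Wdr81, was 5169, 4693 and 4973 bp in edKO hearts, against 4890, 4976 and 4749 bp in WT hearts. The region over Mir130a lay 2385 bp from Ypel4. It was 3422, 2787 and 3325 bp in edKO hearts, against 2991, 3063 and 2425 bp in WT hearts, which overlap. The Mirlet7c-2 region was too short to test. None of the other regions with a form printed here passed the region test (limma adjusted p = 0.714 to 0.949).

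Near-intergenic regions were narrower, lower in rank and less shared than regions at gene ends, and close to regions inside genes in all 3 measures. Their median width was 819, 557 and 479 bp in edKO hearts, against 651, 586 and 462 bp in WT hearts. Over the 6 hearts it averaged 592 ± 131 bp (SD), beside 1303 ± 207 bp at gene ends, a difference of -710.5 bp that had the same sign in 6 of 6 hearts (exact sign-flip p = 0.0312, the smallest 6 hearts allow, adjusted p = 0.0352 over 9 differences). Fold enrichment was ranked within each heart's own list, from 0 to 100, because the authors' fold values are not comparable between hearts. The median rank averaged 44.7 ± 1.05 for near-intergenic regions and 81.7 ± 2.13 for gene ends (exact sign-flip p = 0.0312, adjusted p = 0.0352, n = 6 hearts). Of the near-intergenic regions of a heart, 60.2% ± 8.81 were called in all 6 hearts, beside 90.4% ± 3.70 at gene ends (exact sign-flip p = 0.0312, adjusted p = 0.0352, n = 6). Classes were given to union regions, and a wider union reaches a gene body or gene end more easily. Width and sharing thus bear on the class itself, and the part of this in the differences was not tested.

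Against the other regions away from gene ends the differences were small. Near-intergenic regions exceeded those inside genes by 12.2 ± 5.91 bp in median width and by 3.37 ± 0.63 in median rank, each in 6 of 6 hearts (exact sign-flip p = 0.0312, adjusted p = 0.0352). The share called in all 6 hearts differed by 0.231 ± 3.04 points, higher in 3 of 6 hearts (exact sign-flip p = 0.844). They exceeded far intergenic regions by 45.2 ± 8.66 bp, by 4.64 ± 1.43 in rank and by 4.74 ± 3.22 points in the share called in all hearts, each in 6 of 6 hearts (exact sign-flip p = 0.0312, adjusted p = 0.0352). An alternative left out near-intergenic regions over non-coding genes, while the other classes kept theirs. The leads over far regions were then 2.08 in rank (exact sign-flip p = 0.0625) and 1.90 points (exact sign-flip p = 0.25). The lead in rank over regions inside genes was 0.807 (exact sign-flip p = 0.125), and none of these passed. As the classes were not cut alike, these values do not show the leads with such regions left out of each class. The lead in width over regions inside genes turned to -65.5 bp with stricter lists. It was negative too with lists of equal length and in the alternative without near-intergenic regions over non-coding genes. With 5 hearts an exact sign-flip test cannot pass 0.05, so leaving out a heart gives values alone for these differences.

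**Figure D1:**
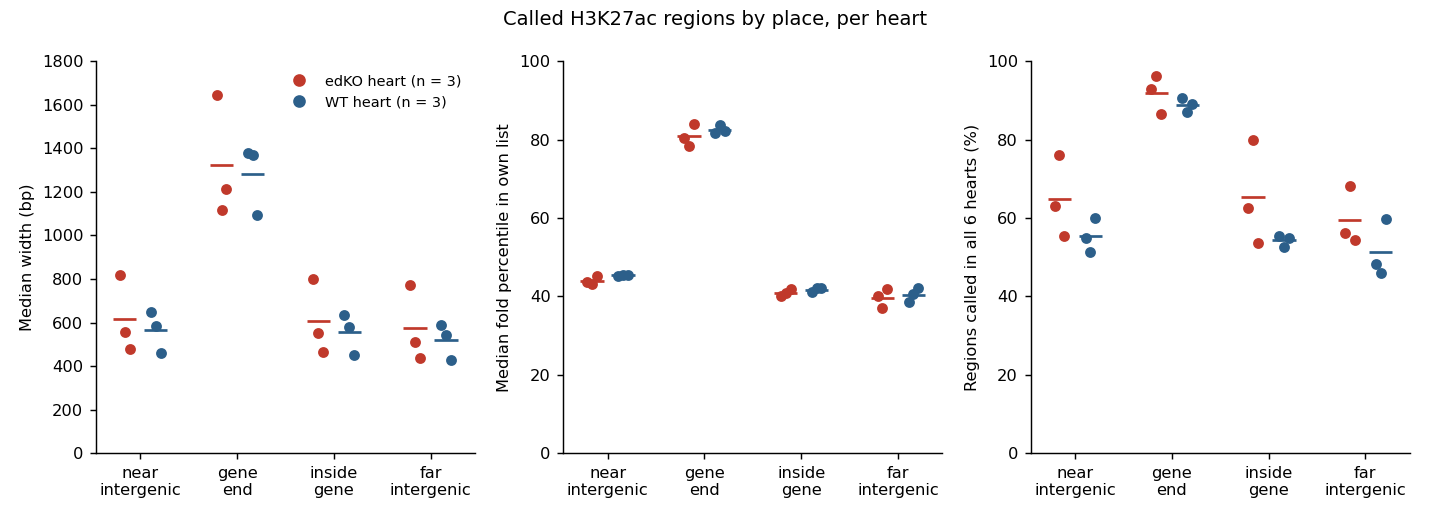
Each point is 1 heart (edKO red, WT blue, 3 each) and each bar their mean, for 4 classes of place; the y axes give the median width in bp, the median rank of fold enrichment in the heart's own list (0 to 100) and the percent of the heart's regions called in all 6 hearts. Near-intergenic regions have median ranks between 43.1 and 45.5 in every heart, beside 78.3 to 84.0 at gene ends.

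Most near-intergenic regions belonged to a few hearts or to all of them. Of the 14930, 5031 (33.7%) were called in 1 heart and 4460 (29.9%) in all 6, with 7.32 to 12.4% at each count between. At gene ends 76.3% of regions were called in all 6 hearts, and inside genes 26.4%. Regions called in more hearts ranked higher, with a median of the mean rank of 18.5 for regions of 1 heart and 63.9 for regions of all 6. The median union width was 299 bp and 1796.5 bp for the same groups, but a union grows with the hearts merged into it. Of the single-heart calls, 1914 were in an edKO heart and 3117 in a WT heart. The part of list length in these shares was not tested.

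**Figure D2:**
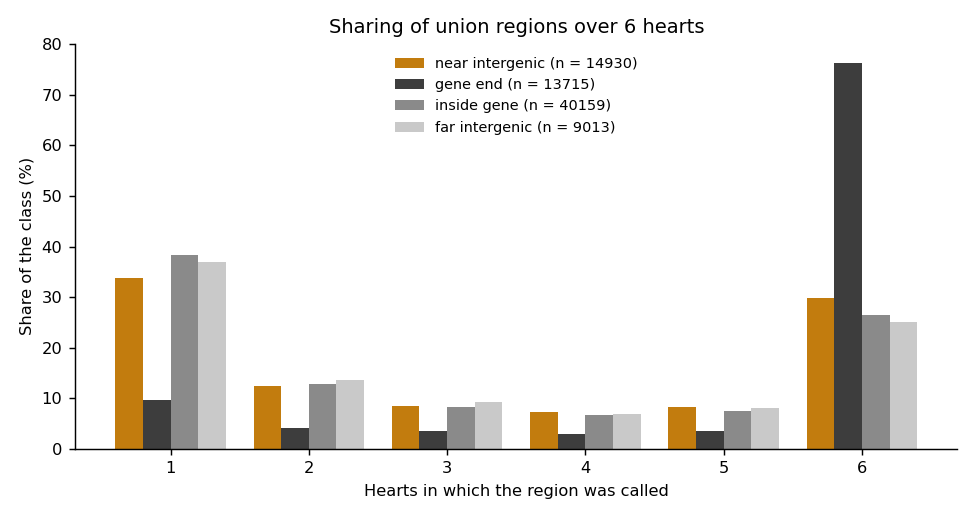
Bars give the percent of the union regions of each class (y axis) that were called in 1 to 6 of the hearts (x axis). Near-intergenic regions peak at 1 heart (33.7%) and at 6 hearts (29.9%), while gene ends hold 76.3% of their regions at 6 hearts.

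Distance from the gene made little difference within the 50 kb. The near-intergenic regions lay at a median of 14083 bp from their gene (interquartile range 6037 to 27129.5 bp), and their union width had a median of 643 bp. The share called in all 6 hearts was 29.4% between 1 and 5 kb, 30.2% between 5 and 10 kb, 30.7% between 10 and 20 kb and 29.5% between 20 and 50 kb. Upstream and downstream sides were alike too, with 29.6% and 29.9% called in all 6 hearts. Of 11391 regions whose nearest gene has a known strand, 53.8% lay upstream. Regions that overlap a non-coding RefSeq gene (3597, 24.1%) stood out more, with 37.9% called in all 6 hearts and a median width of 779 bp, beside 27.3% and 612 bp for the others. The region just inside the lower limit lay 1001 bp from Sypl and was called in 1 WT heart, and the one just outside lay 1000 bp from Oit3 and was called in 3 edKO and 2 WT hearts. At the upper limit the regions were 49996 bp from Atg10 (1 edKO heart) and 50011 bp from Hs1bp3 (2 WT hearts).

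The 14930 regions had 5368 nearest genes, with a median of 2 regions a gene and at most 23. Of these genes, 2721 had at least 1 region called in all 6 hearts and 921 had 5 or more regions of any kind. Lta4h, the leukotriene A4 hydrolase gene, and Irf2bp2, a transcriptional corepressor gene, had the most regions called in all hearts, with 10 each. Ier5, an immediate early gene, Azin1, the antizyme inhibitor gene, Lrrc74a, Cstad and Gask1b had 9 each. Smad6, which encodes an inhibitor of BMP signalling, had 8.

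Several of the widest near-intergenic regions called in all 6 hearts lay over non-coding genes. The region nearest to Il17b covers Carmn and the smooth muscle miRNAs Mir143 and Mir145a and was 20314 bp wide. The region over Airn, the antisense RNA of the imprinted Igf2r gene, was 15119 bp wide, with 13175, 9841 and 11787 bp in edKO hearts, against 12612, 13277 and 12907 bp in WT hearts. A region 8342 bp from Ift81, an intraflagellar transport gene, was 14416 bp wide. By mean rank the leading regions, after that of Mirlet7i, lay near Spen, Ptpdc1 and Chd2, the last over Chaserr, a long non-coding RNA next to Chd2. Their mean ranks were 99.7 to 99.8, and none passed the region test.

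Between genotypes no measure of the near-intergenic regions as a whole passed its test. The edKO hearts had 8236, 8070 and 11867 of them, against 10242, 11518 and 11083 in WT hearts, and edKO 6 lay above all WT hearts. They made up 17.5, 17.1 and 17.8% of the autosomal regions in edKO hearts, against 18.1, 18.7 and 17.0% in WT hearts. The exact two-sided permutation p, which cannot go below 0.1 for 3 against 3 hearts, was 0.4 for the number and 0.5 for the share. The median rank was 43.7, 43.1 and 45.2 in edKO hearts, against 45.3, 45.5 and 45.4 in WT hearts. Every edKO heart lay below every WT heart in it (difference -1.44, exact permutation p = 0.1, adjusted p = 0.5 over 5 measures). With lists of equal length that difference was -0.0117 (exact permutation p = 1), and with stricter lists -0.342 (exact permutation p = 0.7). Median width differed by 52.0 bp (exact permutation p = 0.8).

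Rxra was the nearest gene of 13 near-intergenic regions, 2 of them called in all 6 hearts. Their summed length was 5149, 3750 and 5786 bp in edKO hearts, against 4370, 6970 and 5119 bp in WT hearts, which overlap (log2 difference -0.01, SE 0.19, limma adjusted p = 0.998). The sign of so small a difference turned under several alternatives. Rxrb had no near-intergenic region, and Rxrg, the third RXR gene, had 2, called in edKO 6 and WT 1 at 275 and 265 bp. A histone mark outside the gene body does not check the deletion.

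Regions restricted to edKO hearts (called in all 3 and in no WT heart) were rarer than regions restricted in the same way to WT hearts. There were 13 in edKO hearts (0.0871% of near-intergenic regions, beside 57 or 0.0732% of all autosomal union regions) and 173 in WT hearts (1.16%, beside 833 or 1.07%). The shares thus lay near those of the whole union, and regions inside genes had 29 in edKO (0.0722%) and 477 in WT (1.19%). Gene ends had 3 in edKO (0.0219%) and 59 in WT (0.43%). The lists of edKO 1 and edKO 3 were shorter than every WT list. With lists cut to equal length the counts were 34 in edKO and 101 in WT, so the excess in WT was smaller, and the part of list length was not tested further.

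The WT-restricted regions of highest rank lay near Wnt9a, Acot2, Shld1, Cfap53, Actr3, Klhl38, Acot1, Armc6, Pnpla5 and Irx3. The one near Klhl38, a kelch-family gene, was called at 1328, 2487 and 1553 bp in WT hearts and in no edKO heart (limma adjusted p = 0.0706). The one near Pnpla5, a lipase-family gene, was called at 875, 994 and 858 bp in WT hearts and in no edKO heart. The other 8 also passed the region test and are described with it. The 173 regions had 165 nearest genes, and 8 genes had 2 each: Dysf, the muscle membrane repair gene, Gnat3, a taste transducin gene, Irgm2, an immunity-related GTPase gene, Rreb1, a zinc finger gene, Slc38a4, an amino acid transporter gene, Klhl38, Pnpla5 and Gm5681. These 8 were named after their values were seen.

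The edKO-restricted regions had a median width of 603 bp and a median rank of 27.4, beside 670 bp and 31.8 for the WT-restricted ones. The highest in rank lay in a long non-coding gene 14576 bp upstream of Nf1, the neurofibromin gene, and was called at 672, 276 and 637 bp in edKO hearts and in no WT heart. The longest of those named lay 4594 bp from Selenof, a selenoprotein gene, at 672, 805 and 891 bp in edKO hearts (limma adjusted p = 0.28), with no call in a WT heart. The other regions among the 10 highest in rank lay near Slc6a17, Cstad, Rnase10, Coa7, Dock6, B3gntl1, Larp4b and Scn3b. Each of the 13 was at a gene of its own. Of the 10 named, those near Cstad, B3gntl1 and Scn3b were too short to test, and none of the others passed the region test.

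Region by region, 11 near-intergenic regions lost called length in edKO hearts and 0 gained it. The called length of each union region per heart was compared with limma on log2(bp + 200), with Benjamini-Hochberg adjustment over 42001 autosomal regions of at least 200 bp on average, of which 7594 were near-intergenic. The 11 were 0.145% of the near-intergenic regions tested. Over all regions tested 28 were lower (0.0667%) and 0 higher (0%), so 11 of the 28 were near-intergenic. At an unadjusted limma p under 0.05, 418 near-intergenic regions were lower (5.50%) and 99 higher (1.30%), beside 5.04% and 1.29% of all regions. Inside genes 6.76% were lower, and among far intergenic regions 6.19%. At 685 near-intergenic regions every edKO heart was below every WT heart (9.02%, background 7.89%), and at 100 every one was above (1.32%, background 1.13%). Leaving out edKO 1, 3 or 6 gave 10, 11 and 13 regions, and leaving out WT 1, 3 or 4 gave 0 each time. The count was 1 with a pseudocount of 50 bp, 31 with 1000 bp, and 0 with the replicate number as a block.

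Of the 11 regions, 8 were called in no edKO heart, so their spread comes from the WT hearts alone and no fold is given. Acot2 and Acot1 are neighbouring genes of acyl-CoA thioesterases, enzymes that split acyl-CoA into CoA and a free fatty acid, in mitochondria and in the cytosol. The region 4198 bp downstream of Acot2 (chr12:83998076-84000839) was called at 2244, 2732 and 2692 bp in WT hearts (limma adjusted p = 0.0226). The region 1562 bp downstream of Acot1 (chr12:84019233-84021705) was called at 2473, 2291 and 2137 bp in WT hearts (limma adjusted p = 0.0236). Both thus held over 2 kb of called mark in every WT heart. The region nearest to Wnt9a (chr11:59335898-59339302, 2345 bp downstream), a gene of a secreted Wnt ligand, was called at 2806, 2541 and 3405 bp in WT hearts (limma adjusted p = 0.0226). The region 10789 bp upstream of Irx3 (chr8:91812444-91815353), a homeobox gene of the ventricular conduction system, was called at 2140, 2704 and 2359 bp in WT hearts (limma adjusted p = 0.0236). It lies in Irx3os, a long non-coding gene.

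The other 4 regions with no call in edKO had nearest genes of varied function. Armc6 encodes an armadillo repeat protein, and the region 2308 bp from it (chr8:70214899-70217863) was called at 2265, 2401 and 2851 bp in WT hearts. Shld1 encodes a DNA repair protein of the shieldin complex, and its region (chr2:132638241-132641534) lay 45396 bp away, at 2007, 2203 and 3294 bp in WT hearts. Actr3 encodes a subunit of the actin-nucleating Arp2/3 complex, and its region (chr1:125480870-125483387) lay 45142 bp away, at 2183, 2268 and 2169 bp in WT hearts. The union region adjoining it (chr1:125478435-125480862) was called at 714, 0 and 749 bp in edKO hearts, against 2091, 1952 and 2071 bp in WT hearts (limma adjusted p = 0.395). The lack of edKO calls near Actr3 thus holds for 1 of these adjoining regions and not for both. Cfap53 encodes a protein of motile cilia, and its region, 31534 bp away, was called at 2419, 2175 and 2019 bp in WT hearts. The limma adjusted p of these 4 was 0.0236 for Armc6 and 0.0262 for the others.

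The last 3 of the 11 kept a shorter call in every edKO heart. Sspn encodes sarcospan, a member of the dystrophin-glycoprotein complex of muscle, and the region 1562 bp downstream of it (chr6:145966788-145969903) holds the Gm32838 promoter printed above. It was 324, 271 and 252 bp in edKO hearts, against 2495, 2149 and 2449 bp in WT hearts, and the genotypes were far apart (log2 difference -2.34, SE 0.21, limma adjusted p = 0.0226). Acaa2 encodes the mitochondrial thiolase that ends each round of beta-oxidation. The region 3006 bp from it was 1046, 480 and 574 bp in edKO hearts, against 2665, 2409 and 2605 bp in WT hearts (log2 difference -1.60, SE 0.18, limma adjusted p = 0.0306). Pdk4 encodes the kinase that shuts off pyruvate dehydrogenase and so spares glucose. The region 11272 bp upstream of it (chr6:5507551-5512224) was 1566, 1487 and 1178 bp in edKO hearts, against 4618, 4299 and 3904 bp in WT hearts (log2 difference -1.41, SE 0.14, limma adjusted p = 0.0236). The naming rule takes 10 regions, and the Pdk4 region is the 11th, named after its values were seen. In rank it stood at 59.1, 50.8 and 41.8 in edKO hearts, against 96.0, 95.5 and 95.9 in WT hearts.

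**Figure D3:**
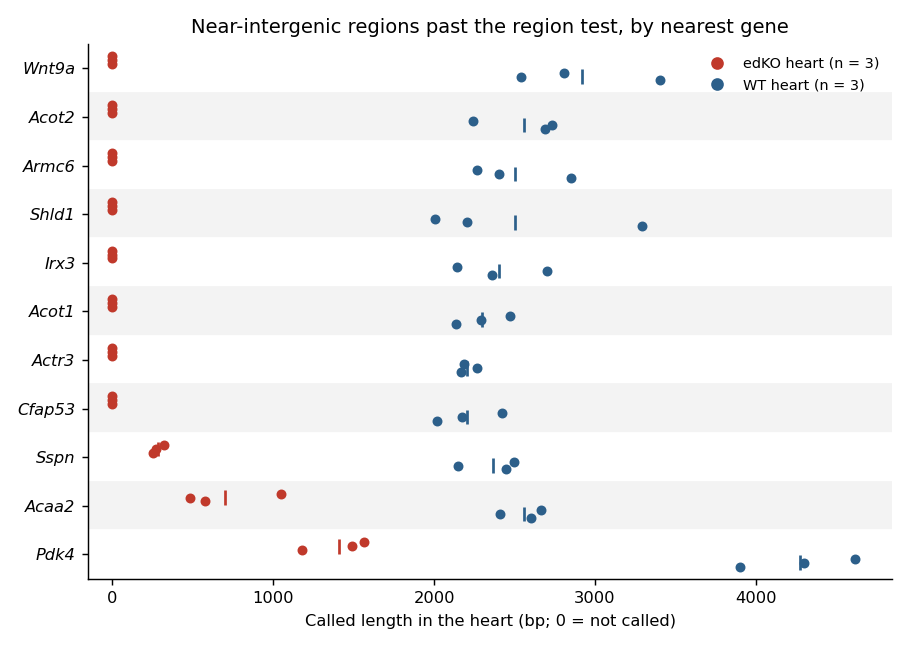
Each row is 1 of the 11 near-intergenic regions past the region test, named by its nearest gene; points give the called length in bp (x axis) in each heart, edKO above WT, with a bar at the mean and 0 for a region that was not called. The edKO points of 8 regions sit at 0, and all WT points lie between 2007 and 4618 bp.

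Summed by nearest gene, 15 genes had less near-intergenic mark in edKO hearts and 0 had more. Of 5368 genes, 3225 averaged at least 500 bp and were tested with limma, so 0.465% were lower and 0% higher at an adjusted p under 0.05. At an unadjusted p under 0.05, 179 were lower (5.55%) and 47 higher (1.46%). Every edKO heart was below every WT heart at 337 genes (10.4%) and above at 23 (0.713%). The median log2 difference of all genes tested was 0.02, and without centring per heart it was -0.12. With centring, estimates were below 0 at 1547 of the 3225 genes (48.0%). Among the 15, 10 had a region past the region test. Sspn, the nearest gene of the other region past that test, was not among the 15. Leaving out edKO 1, 3 or 6 gave 9, 10 and 11 genes, and leaving out WT 1, 3 or 4 gave 1, 0 and 0. The count was 1 with a pseudocount of 50 bp, 7 without centring and 0 with the replicate number as a block.

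In 6 of the 15 genes no edKO heart had any near-intergenic call: Shld1, Acot2, Armc6, Acot1, Cfap53 and Pnpla5. The spread of these 6 comes from the WT hearts alone, and no fold is given. Pnpla5 had 2 regions that together reached 1911, 2078 and 1922 bp in WT hearts (limma adjusted p = 0.0372). In the other 9 genes the mark was shorter in edKO hearts. Irx3 had 349, 0 and 325 bp in edKO hearts, against 2727, 3369 and 2662 bp in WT hearts (log2 difference -2.87, SE 0.35, limma adjusted p = 0.0209). Actr3 had 1168, 249 and 1250 bp in edKO hearts, against 5810, 5363 and 4946 bp in WT hearts (log2 difference -2.39, SE 0.33, limma adjusted p = 0.027). Its mark lay mainly in adjoining regions over 40 kb upstream. Wnt9a had 1029, 748 and 708 bp in edKO hearts, against 4403, 5002 and 5599 bp in WT hearts (log2 difference -2.21, SE 0.23, limma adjusted p = 0.0209).

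Paqr9, a gene of the progestin and adipoQ receptor family, had no single region past the test but fell in sum. It had 838, 356 and 1017 bp in edKO hearts, against 3573, 3345 and 4077 bp in WT hearts (log2 difference -1.98, SE 0.27, limma adjusted p = 0.0236). Pdk4 had 1566, 1487 and 1178 bp in edKO hearts, against 4961, 4299 and 3904 bp in WT hearts (log2 difference -1.37, SE 0.21, limma adjusted p = 0.0372). Acaa2 rests on its 1 region, described above (limma adjusted p = 0.0418). The mitochondrial pyrimidine nucleotide carrier gene Slc25a33 had 9 regions with 3315, 2392 and 2736 bp in edKO hearts, against 6825, 7288 and 6434 bp in WT hearts (log2 difference -1.10, SE 0.14, limma adjusted p = 0.0209). The serine carboxypeptidase gene Scpep1 had 1960, 1693 and 2893 bp in edKO hearts, against 5986, 6504 and 5893 bp in WT hearts (log2 difference -1.30, SE 0.20, limma adjusted p = 0.0372). One of its regions, called at 493, 646 and 391 bp in WT hearts and in no edKO heart, holds the Scpep1os promoter printed above. Zfat, a zinc finger gene, had 2025, 1113 and 1799 bp in edKO hearts, against 5060, 4104 and 3464 bp in WT hearts (log2 difference -1.14, SE 0.18, limma adjusted p = 0.0397). At all 15 genes the genotypes did not overlap.

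**Figure D4:**
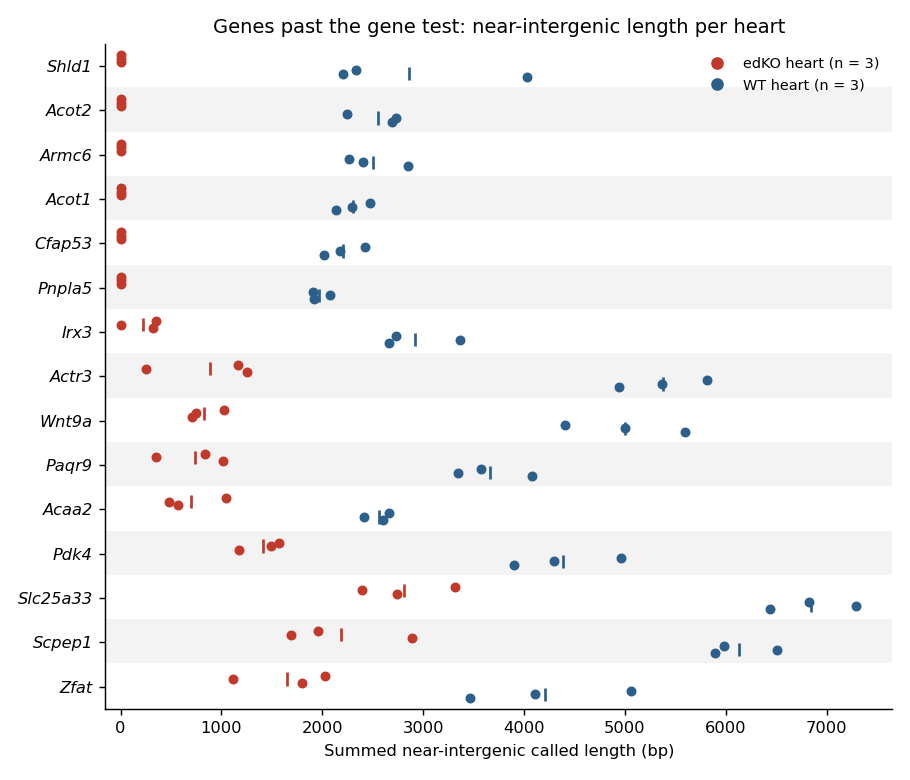
Each row is 1 of the 15 genes past the gene test; points give the near-intergenic called length in bp, summed over the regions nearest to that gene (x axis), in each heart, edKO above WT, with a bar at the mean. No edKO point reaches a WT point of the same gene, and the edKO points of 6 genes sit at 0.

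The ends of most of these genes overlapped between genotypes. Regions touching 1 kb around either gene end were called in every heart at 12 of the 15 genes, and the genotypes overlapped in their length at 10, which include Pnpla5 with no call at its ends in any heart and Cfap53 with a call in edKO 6 alone. At Irx3 they measured 5270, 3596 and 4337 bp in edKO hearts, against 4749, 4316 and 4344 bp in WT hearts. At Pdk4 they measured 3905, 3024 and 3047 bp in edKO hearts, against 3851, 3743 and 3959 bp in WT hearts. At both genes the ends thus overlapped between genotypes while the near-intergenic length did not. At 5 genes, Acot2, Armc6, Acot1, Paqr9 and Scpep1, the ends were shorter in every edKO heart too. Those of Acot2 averaged 1688 ± 223 bp in edKO and 3264 ± 232 bp in WT (SD, n = 3 each), and those of Acot1 942 ± 32.7 bp in edKO and 1720 ± 273 bp in WT. The difference between gene ends and near-intergenic length was not tested.

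Fatty acid oxidation genes held the largest share of the called genes among 16 lists, which were chosen with earlier results of these data known. That lead is thus not an independent result. Of 30 members, 12 had near-intergenic regions and 10 were tested, and 4 were lower (Acot2, Acot1, Pdk4 and Acaa2) and 0 higher. The median log2 difference of the 10 was -1.0, beside 0.02 for all genes tested. It lies between Pdk4 (-1.37) and the carnitine palmitoyltransferase gene Cpt2 (-0.63, named after its values were seen). Both had called length in every edKO heart. Their values include the pseudocount too, and the list median at other pseudocounts was not tested. Eci2, an enoyl-CoA isomerase gene named after its values were seen, had 327, 0 and 387 bp in edKO hearts, against 3779, 2363 and 1328 bp in WT hearts, and did not pass (limma adjusted p = 0.0617). Of the list's 22 regions 3 were WT-restricted, beside 1.16% of all near-intergenic regions. The uncentred summed length of the tested members was 7373 to 10827 bp in edKO hearts, against 19646 to 25974 bp in WT hearts. Sums of lists are uncentred, that is, as called in each heart. All near-intergenic regions together held 9583394, 6649314 and 8961880 bp in edKO hearts, against 10110616, 10342587 and 8185603 bp in WT hearts. Those totals overlap, and the part of list length in the sums of lists was not tested.

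Genes of fatty acid uptake and lipid storage had no call, but their lowest members lay well apart. Of 31 members 14 were tested and 0 passed. Of the 14, 10 had estimates below 0, beside 48.0% of all genes tested, and the median log2 difference was -0.33. Vldlr, which encodes a lipoprotein receptor of muscle, had 1797, 521 and 1580 bp in edKO hearts, against 4234, 4471 and 4548 bp in WT hearts (log2 difference -1.61, SE 0.29, limma adjusted p = 0.074). Fabp3, the heart fatty acid binding protein gene, had 1375, 325 and 1649 bp in edKO hearts, against 4579, 4129 and 5308 bp in WT hearts (log2 difference -1.93, SE 0.37, limma adjusted p = 0.101). Plin2, which encodes a coat protein of lipid droplets, had 1009, 249 and 778 bp in edKO hearts, against 2001, 2295 and 2543 bp in WT hearts (log2 difference -1.47, SE 0.31, limma adjusted p = 0.154). In these 3 the edKO hearts did not overlap the WT hearts, and edKO 3 was lowest. Angptl4, a lipoprotein lipase inhibitor gene named after its values were seen, had 525, 288 and 282 bp in edKO hearts, against 1076, 1749 and 841 bp in WT hearts (limma adjusted p = 0.433). Of the list's 55 regions 5 were WT-restricted, beside the same 1.16%. The uncentred summed length of the tested members was 25339 to 42023 bp in edKO hearts, against 44206 to 51234 bp in WT hearts.

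The cardiac lists had medians closer to that of all genes. Of 25 cardiac transcription factor genes 16 were tested and 1 was lower (Irx3). Of the 16, 13 had estimates below 0, beside 48.0% of all genes tested, and the median was -0.11. The uncentred summed length of the 16 did not overlap, at 82217 to 124045 bp in edKO hearts, against 130729 to 141626 bp in WT hearts. Prox1 had 4068, 3755 and 4490 bp in edKO hearts, against 8571, 6560 and 6060 bp in WT hearts (log2 difference -0.60, SE 0.17, limma adjusted p = 0.331). Meis2 had 3080, 3337 and 2248 bp in edKO hearts, against 5742, 5587 and 4170 bp in WT hearts (log2 difference -0.66, SE 0.23, limma adjusted p = 0.528). Both homeobox genes had genotypes that did not overlap and neither passed. Of 40 sarcomere and calcium handling genes 21 were tested, 0 passed in either direction, 15 had estimates below 0, and the median was -0.05. Their summed length was 50058 to 71411 bp in edKO hearts, against 65602 to 84032 bp in WT hearts, which overlap. The lowest estimates by unadjusted p were those of Tpm1 (log2 difference -0.52, SE 0.17), Myl3 (-0.72, SE 0.30) and Actc1 (-0.87, SE 0.37), which encode tropomyosin, a myosin light chain and cardiac actin. WT-restricted regions numbered 5 of 140 at the transcription factor genes and 0 of 105 at the sarcomere genes, beside 1.16% of all near-intergenic regions.

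**Figure D5:**
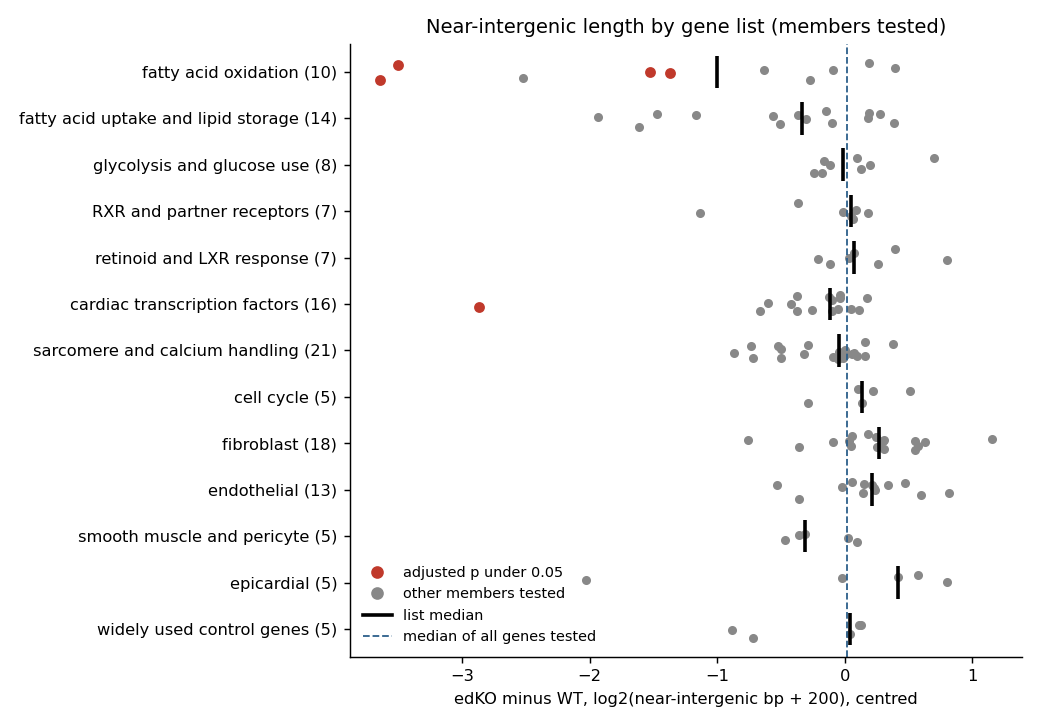
Each grey or red point is 1 tested gene and the x axis its edKO minus WT difference in log2(near-intergenic bp + 200), centred per heart; rows are the lists with at least 5 members tested, black bars their medians, and the dashed line the median of all genes tested (0.02). The 4 red points (adjusted p under 0.05) of fatty acid oxidation lie at -1.37 or below, and the 1 other red point is Irx3.

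The receptor, response, glucose and cell cycle lists had no member past the threshold. Of 22 RXR and partner receptor genes 7 were tested, with a median of 0.05. Pparg had 1893, 267 and 756 bp in edKO hearts, against 2348, 2920 and 1474 bp in WT hearts, which overlap (log2 difference -1.14, SE 0.41, limma adjusted p = 0.542). The coactivator gene Ppargc1b had 3217, 3251 and 3333 bp in edKO hearts, against 4724, 4831 and 4622 bp in WT hearts, with the genotypes apart and no call (limma adjusted p = 0.778). Among retinoid and LXR response genes, 7 were tested and their median was 0.07, with the cholesterol exporter gene Abca1 at 0.40 (SE 0.21, limma adjusted p = 0.815). Of 32 glycolysis and glucose use genes 8 were tested, with a median of -0.01 and Pfkfb3, a regulator of glycolysis, at 0.70 (SE 0.36, limma adjusted p = 0.804). The cell cycle list had 5 members tested and a median of 0.14, and the 5 tested control genes a median of 0.04.

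No marker of the other cells of the heart passed the test in either direction. Of 19 fibroblast genes 18 were tested, 15 with estimates above 0 and a median of 0.27. Of 21 endothelial genes 13 were tested, 10 above 0 and a median of 0.21. Among all genes tested, 48.0% had estimates below 0. Summed length overlapped between genotypes, at 57910 to 62945 bp in edKO hearts, against 47997 to 77362 bp in WT hearts for fibroblast genes. For endothelial genes it was 33254 to 59514 bp in edKO hearts, against 39411 to 51449 bp in WT hearts. The 5 tested smooth muscle and pericyte genes had a median of -0.31, the 5 epicardial genes 0.42, the 3 neural and Schwann genes -0.42 and the 1 leukocyte gene -0.08, while the 2 erythroid genes stood at -0.20 and 0.20. The uncentred summed length of the neural and Schwann genes did not overlap. It was 3292 to 4946 bp in edKO hearts, against 5428 to 7850 bp in WT hearts. Of these markers with a positive estimate, the endothelial gene Sox7 (log2 difference 0.82, SE 0.21) and the fibroblast gene Mfap5 (0.55, SE 0.20) had the smallest unadjusted p. The fibroblast receptor gene Pdgfra (log2 difference 0.57, SE 0.26), the secreted glycoprotein gene Fstl1 (0.26, SE 0.12) and the epicardial factor gene Tbx18 (0.42, SE 0.19) were the other marker genes with the smallest unadjusted p and a positive estimate. Those with a negative estimate were Egfl7 (-0.53, SE 0.22), Krt18 (-2.03, SE 0.67), Sox10 (-0.42, SE 0.18) and Stmn2 (-0.48, SE 0.25). The part of cell makeup in the falls at the 15 genes was not tested.

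No gene with a positive estimate passed the threshold, and the 8 named here had the smallest unadjusted p of the 23 genes whose edKO hearts all lay above their WT hearts, so that separation comes from the choice. Lemd2, which encodes a protein of the inner nuclear membrane, had 4964, 3618 and 5369 bp in edKO hearts, against 1764, 2707 and 2293 bp in WT hearts (log2 difference 1.12, SE 0.20, limma adjusted p = 0.0757), and passed in 3 of 18 alternatives. Its 2 regions, 34580 and 39381 bp away over a long non-coding gene, were called in all 6 hearts, while the gene's ends measured 1745, 1571 and 1799 bp in edKO hearts, against 1811, 1761 and 1666 bp in WT hearts. The ends overlapped between genotypes. Sox7, a transcription factor gene of endothelium, had 1752, 1334 and 2009 bp in edKO hearts, against 956, 1205 and 792 bp in WT hearts (log2 difference 0.82, SE 0.21, limma adjusted p = 0.331). The sialyltransferase gene St3gal4 had 1262, 850 and 1108 bp in edKO hearts, against 430, 364 and 436 bp in WT hearts (log2 difference 1.19, SE 0.34, limma adjusted p = 0.37). The others named were the phosphatase gene Dusp23 (0.89, SE 0.24), Dock6 (0.69, SE 0.19), the kinase gene Map3k9 (0.71, SE 0.20), Thy1, a surface protein of fibroblasts (0.84, SE 0.26), and Mfap5, a microfibril gene (0.55, SE 0.20). Their limma adjusted p ran from 0.331 to 0.568.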

How the data were processed

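The authors deposited 1 list of called regions per heart in the narrowPeak format, with coordinates in mm10. Each deposited entry holds a fold enrichment (a ratio to background), a −log10 p-value, a −log10 q-value and a score. cutadapt, BWA, SAMtools and MACS2 are named without versions in the submitters' processing notes. The role of inputs in calling and the caller settings are not stated in them. The 6 inputs were not used. Read depth is unknown, so no counting interval is given.

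Entries of 1 region were joined with the highest fold kept, and fold was used as a rank (0 to 100) within a list. Genes came from a RefSeq table (GRCm38.p6, 20661 autosomal protein-coding genes, 16456 with a strand). Lengths were fitted as log2(bp + 200), centred per heart on features called in all 6 hearts, with limma 3.58.1 (trend, robust) in R 4.3.3, edKO minus WT, at 0.05. Such log2 differences understate changes of short features. Sequences were matched outside chromosome 18. Exact tests went through every assignment of hearts or signs with numpy 2.4.6 under Python 3.11.15, and the fit was tested on simulated data.

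Members and the 16 lists (354 genes, all matched) were chosen with earlier results of these data known. Named were, by rule, the restricted regions of highest rank, regions and genes past a test, and among rises the 8 smallest p of genes without overlap, the widest and highest-ranked regions (1 of them is not reported here), the genes with most regions called in all hearts, RXR genes, and list members among the 3 smallest p of their list with p under 0.1. Hearts 1 and 3 share numbers across genotypes, with correlations of deviations of 0.119 and 0.116, but the labels do not say that numbers pair hearts. In no 2 hearts did more than 0.0121% of near-intergenic regions have exactly the same start and end. Alternatives were other pseudocounts, filters, scalings, lists, distances and hearts.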

Additional observations from a re-analysis of the deposited data

How the results depend on the processing

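Counts of lower regions (11) and genes (15) depended on the settings. With a pseudocount of 50 bp they were 1 and 1, with 1000 bp 31 and 23, without a length filter 104 and 24 (9 regions and 1 gene higher), and with a minimum of 1000 bp 2 and 9. With the replicate number as a block, which leaves 1 residual degree of freedom, they were 0 and 0 (607 and 225 lower, 96 and 46 higher at an unadjusted p under 0.05 in limma). With a term for hearts with a called region at Xist, chosen after seeing the data, they were 0 and 1. Without centring 7 genes passed. Stricter lists gave 1 region, equal list length 5 and distances over 5 kb 5. Leaving out regions over RefSeq genes gave 7 regions and 5 genes. Leaving out 1 heart gave 0 to 13 regions and 0 to 11 genes. No called region or gene changed direction, but each lost its call in some alternatives, from Wnt9a in 5 of 20 to Acaa2 in 12 of 19 among genes and from Sspn in 6 of 15 to Acaa2 in 9 of 16 among regions. Wnt9a ranged from -2.77 to -1.01 and Slc25a33 from -1.56 to -0.45.

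The difference in median width between genotypes was -64.3 bp with equal list length and -48.3 to 121.7 bp leaving out 1 heart. Against regions inside genes, stricter lists gave -65.5 bp, 1.42 in rank and -0.793 points shared, equal length -12.9 bp and -0.704 points, joined regions -0.576 points, and no RefSeq gene overlap -12.2 bp, 0.807 and -2.60. Those for rank lost the call. The setting of no RefSeq gene overlap took regions out of the near-intergenic class alone, here and in the next comparison. Leaving out 1 heart gave 11 to 13.6 bp, 3.19 to 3.58 and -0.217 to 0.603. Against far regions, no RefSeq gene overlap gave 2.08 in rank and 1.90 points and distances to 20 kb 4.05 points, all 3 losing the call, and leaving out 1 heart 42.3 to 47.3 bp, 4.25 to 4.90 and 4.29 to 5.14. Against gene ends that gave -741 to -687.4 bp, -37.4 to -36.7 and -29.0 to -26.9.

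Restricted regions numbered 34 (edKO) and 101 (WT) with equal length, 107 (WT) to 20 kb, and 24 to 114 (edKO) and 209 to 475 (WT) leaving out 1 heart. Myl3 turned to 0.038 beyond 5 kb, and Rxra to 0.30 to 20 kb and -0.20 to 0.10 leaving out 1 heart. Apart from the settings' own construction, the cause of these changes was not tested. Unknown depth limits all counts of missing calls.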
